A study of Mus musculus with 18 samples.

Results

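The 38 genes described here were listed as general genes of cells of the myeloid lineage (macrophages, monocytes, neutrophils and their relatives): Fc receptors, other surface receptors, the phagocyte NADPH oxidase, lysosomal proteins, the Ms4a membrane proteins, signalling kinases, transcription factors, cytoskeletal proteins and secreted proteins. They were taken by name from a table of 54186 gene symbols, and all 38 were found in it. The list was drawn up with the response of these mice to human IAPP already known, so for these genes hIAPP against WT or rIAPP mice is described by values and by how many passed the fit over all genes, with no p values and nothing read from the counts. Among the 38 genes p values are given for rIAPP against WT mice.

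The study sequenced RNA from pancreatic islets of FVB mice aged 6 weeks, with 6 mice of each of 3 genotypes and 1 library for each mouse, about 165 islets a mouse. The hIAPP mice carried human islet amyloid polypeptide (IAPP), which is prone to aggregate, as a transgene. The rIAPP mice carried the rodent peptide, which does not form amyloid, and WT mice carried neither transgene. Both transgenes were driven by the insulin II promoter, that is in beta cells, whereas the RNA came from whole islets with whatever other cells they held. The design thus sets human IAPP beside no transgene (hIAPP against WT) and beside a peptide of other sequence from the same promoter (hIAPP against rIAPP). It also sets the rodent peptide beside no transgene (rIAPP against WT). An effect of a peptide cannot be told apart from other differences between the genotypes, such as the shares of acinar and beta cell markers given below.

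Islets hold a resident population of macrophages, which lie along the vessels, take up material released by beta cells and clear dying cells. Fc receptors bind antibody on particles and pass the signal on through tyrosine-based motifs to the kinase Syk. The phagocyte oxidase makes superoxide in the phagosome, and lysosomal proteins digest what was taken up. The factor PU.1, encoded by Spi1, together with Irf8, is known to set up the expression of many of these genes.

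Libraries held 128 ± 13.4 M counts in hIAPP mice, 138 ± 10.5 M in rIAPP mice and 156 ± 8.89 M in WT mice (SD, n = 6 each). The hIAPP libraries were smaller than WT libraries (exact permutation p = 0.00216, two-sided, the smallest that 6 against 6 allows, and 0.00541 adjusted over 15 library tests). The rIAPP libraries were also smaller than WT libraries (exact permutation p = 0.0152, adjusted 0.0227). Between hIAPP and rIAPP libraries the difference did not pass (exact permutation p = 0.201, adjusted 0.252). Markers of beta cells made up 10.6% ± 1.93 of counts in hIAPP, 9.35% ± 1.02 in rIAPP and 13.2% ± 0.724 in WT libraries. They were lower than WT in hIAPP (exact permutation p = 0.00433, adjusted 0.00722) and in rIAPP (exact permutation p = 0.00216, adjusted 0.00541). Markers of acinar cells, the exocrine cells around islets, made up 0.942% ± 0.686 in hIAPP, 1.15% ± 0.607 in rIAPP and 0.219% ± 0.116 in WT libraries, higher than WT in hIAPP (exact permutation p = 0.00433, adjusted 0.00722) and in rIAPP (exact permutation p = 0.00216, adjusted 0.00541). Levels are counts per 1000000 counts of the scaled library (CPM), and a gene was called changed at an adjusted p under 0.05 in edgeR over 20244 genes, all 38 myeloid genes among them.

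Promoters of 29 of the 38 genes, 35 in number, were found in RefSeq (GRCm38.p6), each 250 bases before to 50 bases after a transcription start. They were searched on both strands for GAGGAA, a core to which PU.1 is known to bind, and for the longer GAGGAAGT, which contains the core. The core was present in 18 of the 35 promoters (51.43%), which belong to 17 genes, and in 9289 of all 32851 RefSeq promoters (28.28%). The longer form was present in 2 of 35 (5.714%) and in 1052 of 32851 (3.202%). A match is a run of letters and not a measured binding site. The 5 promoters printed here are those of Lyz2, the gene with the largest difference in hIAPP islets, which holds no match, of Itgam and Cd68, which hold several, and of Fcgr4 and Cd53, which hold the longer form. They lie at chr10:117282223-117282522 (minus strand, Lyz2), chr7:128062390-128062689 (plus strand, Itgam), chr11:69666121-69666420 (minus strand, Cd68), chr1:171018676-171018975 (plus strand, Fcgr4) and chr3:106790100-106790399 (minus strand, Cd53). Capitals mark matches, read as TTCCTC or ACTTCCTC where the match is on the other strand.
Lyz2: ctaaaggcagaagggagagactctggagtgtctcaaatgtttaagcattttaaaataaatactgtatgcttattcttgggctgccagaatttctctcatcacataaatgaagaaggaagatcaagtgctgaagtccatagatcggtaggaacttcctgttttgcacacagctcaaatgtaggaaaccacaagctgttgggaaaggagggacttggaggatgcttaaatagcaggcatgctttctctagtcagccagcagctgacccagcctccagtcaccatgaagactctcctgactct
Itgam: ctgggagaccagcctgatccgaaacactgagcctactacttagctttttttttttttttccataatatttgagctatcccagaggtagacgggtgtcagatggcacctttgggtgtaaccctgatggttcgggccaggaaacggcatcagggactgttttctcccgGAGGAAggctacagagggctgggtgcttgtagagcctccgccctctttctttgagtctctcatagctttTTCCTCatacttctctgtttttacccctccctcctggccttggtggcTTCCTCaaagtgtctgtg
Cd68: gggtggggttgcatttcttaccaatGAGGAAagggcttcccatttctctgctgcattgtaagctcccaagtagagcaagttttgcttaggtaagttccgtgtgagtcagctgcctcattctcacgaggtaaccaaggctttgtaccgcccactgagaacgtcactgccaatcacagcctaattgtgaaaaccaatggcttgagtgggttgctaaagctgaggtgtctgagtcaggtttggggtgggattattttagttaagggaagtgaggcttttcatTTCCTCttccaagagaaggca
Fcgr4: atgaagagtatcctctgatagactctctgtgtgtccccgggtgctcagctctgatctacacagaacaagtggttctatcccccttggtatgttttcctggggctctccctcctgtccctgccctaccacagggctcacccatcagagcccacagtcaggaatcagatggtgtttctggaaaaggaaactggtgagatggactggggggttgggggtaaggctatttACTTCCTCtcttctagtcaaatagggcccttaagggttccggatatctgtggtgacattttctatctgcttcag
Cd53: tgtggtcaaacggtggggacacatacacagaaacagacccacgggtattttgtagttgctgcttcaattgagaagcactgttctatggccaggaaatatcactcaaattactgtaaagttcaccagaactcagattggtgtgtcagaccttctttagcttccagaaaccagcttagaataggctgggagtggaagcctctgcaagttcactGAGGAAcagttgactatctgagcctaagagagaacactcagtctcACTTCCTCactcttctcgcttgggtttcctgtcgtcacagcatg
Counted from the start site, the matches in Itgam begin at -84, -15 and 32, those in Cd68 at -225 and 29, the longer match of Fcgr4 at -24, and that of Cd53 at 6 with a further core at -39. Cybb, Btk and Cd84 also hold the core within 11 bases after their start, at 9, 9 and 11.

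In hIAPP islets, 37 of the 38 genes were called higher than in WT islets, none was called lower, and Cd14 was the gene that did not pass, while 8.31% of all genes tested were called higher and 7.53% lower. The log2 fold changes ran between 0.31 and 4.24 with a median of 1.49, where all genes tested had a median of -0.01. The difference was at least 2-fold for 32 genes (2.13% of all genes) and at least 4-fold for 12 (0.524%), and every hIAPP library lay above every WT library for 33 genes (3.74%). Since this contrast was in view when the genes were listed, nothing is read from those shares. Whole-islet RNA cannot tell more myeloid cells from more of these transcripts in each cell.

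In hIAPP islets lysozyme, encoded by Lyz2, had the highest level of the 38 genes, both in CPM and per kilobase. The 38 genes together reached 596 ± 183 CPM in hIAPP islets, 125 ± 7.07 CPM in rIAPP islets and 131 ± 9.84 CPM in WT islets (SD, n = 6 each). The libraries ranged between 406.8 and 887 CPM in hIAPP, between 118 and 136 CPM in rIAPP and between 118 and 146 CPM in WT, so that hIAPP stood clear of both while the other genotypes overlapped. Lyz2 supplied 36.9% ± 1.22 of these counts in hIAPP, 10.3% ± 0.935 in rIAPP and 8.96% ± 0.759 in WT libraries. Without Lyz2 the sum was 375 ± 110 CPM in hIAPP, 112 ± 5.30 CPM in rIAPP and 119 ± 8.72 CPM in WT.

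**Figure D1:**
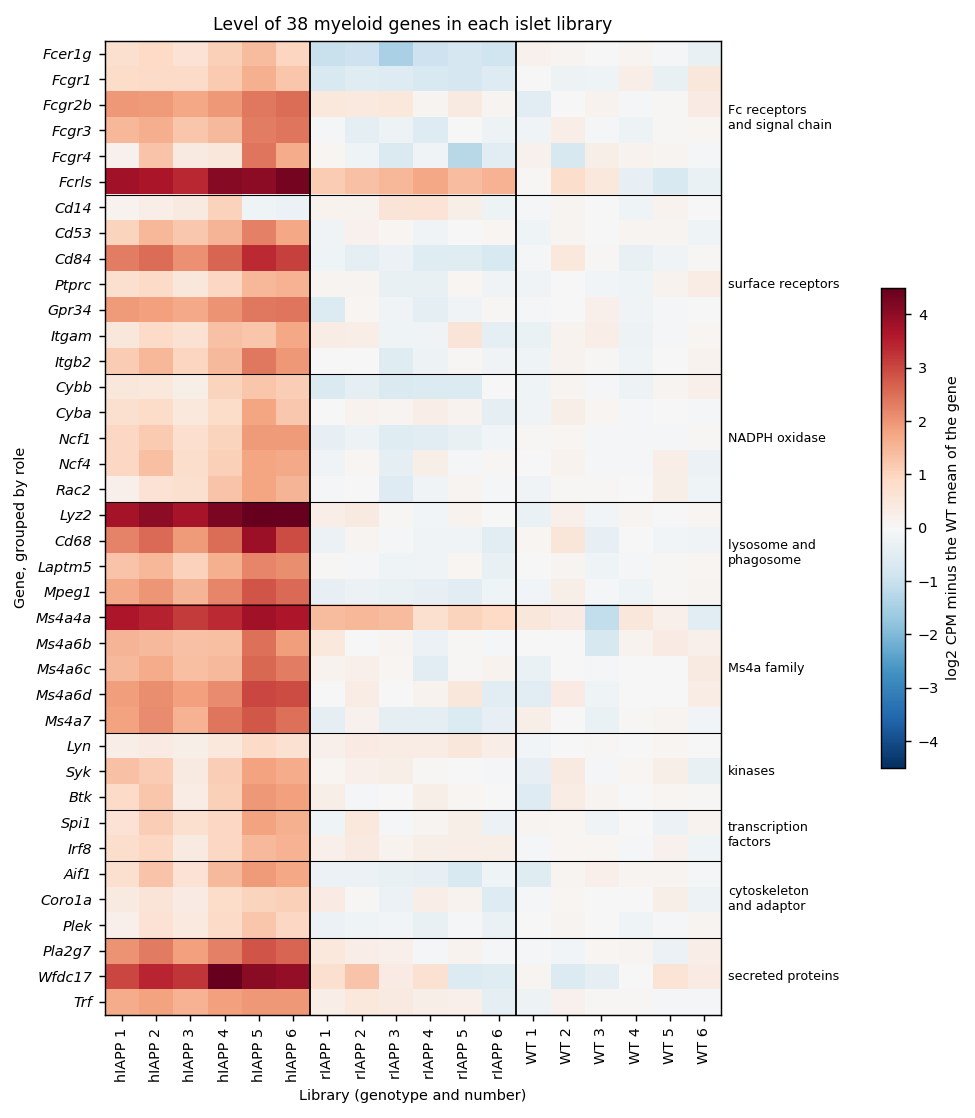
Level of each of the 38 genes (rows, grouped by role) in each of the 18 libraries (columns), as log2 CPM minus the mean of the 6 WT libraries, with red for higher and blue for lower. The hIAPP columns are red in nearly every row, deepest for Lyz2, Wfdc17, Fcrls and Ms4a4a, while the rIAPP and WT columns stay pale, apart from red rIAPP fields for Fcrls and Ms4a4a and blue ones for Fcer1g and Fcgr1.

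Among lysosomal and phagosomal genes, all 4 were called higher in hIAPP than in WT islets (8.31% of all genes were), with a median log2 fold change of 2.49. Lyz2, the lysozyme of macrophages and granulocytes (chr10:117277331-117282321, minus strand, GRCm38), had a lowest, median and highest level of 151, 206 and 343 CPM in hIAPP, of 10.7, 12.6 and 15.6 CPM in rIAPP, and of 9.54, 11.9 and 13.6 CPM in WT islets. The lowest hIAPP library lay far above the highest of the other genotypes, and the log2 fold change was 4.24 ± 0.18 (SE) against WT and 4.10 ± 0.18 against rIAPP. Lyz2 shares 15.4% of its 50-base words with Lyz1, a near copy used by Paneth cells of the gut, and Lyz1 itself had 0.632 CPM in hIAPP, 0.0715 CPM in rIAPP and 0.0435 CPM in WT islets. Mpeg1, which encodes the pore-forming perforin-2 of phagocytes, had 67.7, 100 and 170 CPM (lowest, median, highest) in hIAPP, 17.0, 18.8 and 20.8 CPM in rIAPP and 20.6, 23.2 and 28.7 CPM in WT islets. Its log2 fold change was 2.20 ± 0.17 against WT and 2.53 ± 0.17 against rIAPP. Cd68, a lysosomal glycoprotein used as a macrophage marker, had 7.33, 11.3 and 28.2 CPM in hIAPP, 1.40, 1.74 and 2.09 CPM in rIAPP and 1.51, 1.86 and 2.82 CPM in WT islets. The highest of these, hIAPP 5, stood apart from the other hIAPP libraries, which reached 14.9 CPM. Laptm5, a lysosomal membrane protein of blood cells, had 7.18, 10.2 and 16.1 CPM in hIAPP against 3.07, 3.53 and 3.81 CPM in WT islets, and its log2 fold change was 1.68 ± 0.16. Per kilobase of exon, Lyz2 at 168 and Mpeg1 at 25.2 CPM were the most abundant of the 38 genes in hIAPP islets, and also, at 8.92 and 5.5 CPM, in WT islets.

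**Figure D2:**
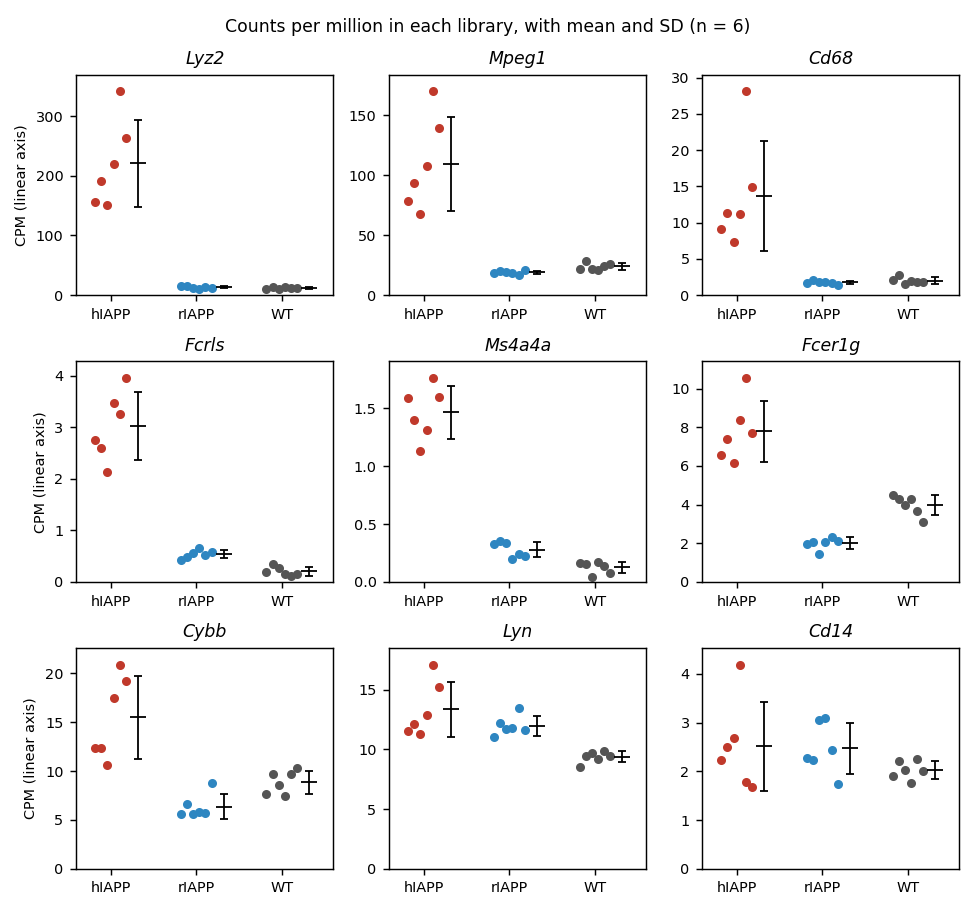
CPM of 9 of the genes in each library (points, linear axes from 0) for hIAPP, rIAPP and WT islets, with the mean and SD of the 6 libraries beside the points. Lyz2, Mpeg1, Cd68, Fcrls, Ms4a4a, Fcer1g and Cybb separate hIAPP from both other genotypes, Lyn separates WT from the others, and Cd14 overlaps in all 3.

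All 6 genes of Fc receptors and their signal chain were called higher in hIAPP than in WT islets (8.31% of all genes were), with log2 fold changes between 0.97 and 3.90. Fcrls, an Fc receptor-like scavenger protein known as a marker of mouse microglia, had 2.13, 3.0 and 3.96 CPM in hIAPP, 0.432, 0.538 and 0.656 CPM in rIAPP and 0.112, 0.173 and 0.338 CPM in WT islets. No library of one genotype overlapped with another for it, and the log2 fold change was 3.90 ± 0.24 against WT and 2.49 ± 0.22 against rIAPP. Per kilobase it was the least abundant of the 38 genes in WT islets, at 0.0864 CPM, and ranked 26 in hIAPP islets, at 1.30 CPM. Its WT libraries held 18 to 47 counts. Fcgr2b, the inhibitory receptor for immunoglobulin G, had 4.91, 5.66 and 8.39 CPM in hIAPP, 1.61, 1.97 and 2.05 CPM in rIAPP and 1.03, 1.49 and 1.89 CPM in WT islets. The activating receptor Fcgr3 had 7.97, 9.96 and 18.0 CPM in hIAPP, 2.24, 2.85 and 3.32 CPM in rIAPP and 2.82, 3.33 and 4.16 CPM in WT islets. Both stood clear of WT and rIAPP, with log2 fold changes against WT of 2.08 ± 0.15 for Fcgr2b and 1.82 ± 0.18 for Fcgr3. The pair shares sequence, 9.58% of the 50-base words of Fcgr3 being also in Fcgr2b, and their sum was 18.2 ± 5.53 CPM in hIAPP, 4.70 ± 0.539 CPM in rIAPP and 4.86 ± 0.638 CPM in WT islets.

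Fcer1g, the signal chain that carries the tyrosine motif for several Fc receptors, had 6.15, 7.56 and 10.6 CPM in hIAPP, 1.43, 2.07 and 2.35 CPM in rIAPP and 3.11, 4.13 and 4.5 CPM in WT islets. The genotypes formed 3 bands, with hIAPP highest and rIAPP lowest, and the log2 fold change was 0.97 ± 0.13 against WT and 1.96 ± 0.14 against rIAPP. Fcgr1, the high-affinity receptor for immunoglobulin G, showed the same order, with 1.34, 1.54 and 2.28 CPM in hIAPP, 0.433, 0.472 and 0.502 CPM in rIAPP and 0.586, 0.688 and 1.07 CPM in WT islets. Fcgr4, a mouse activating receptor, was sparse at 0.280, 0.480 and 1.37 CPM in hIAPP, 0.0954, 0.192 and 0.259 CPM in rIAPP and 0.144, 0.271 and 0.296 CPM in WT islets. Its hIAPP and WT libraries overlapped, and its log2 fold change against WT, 1.31 ± 0.35, was 0.93 without hIAPP 5 and no longer passed there. Of the other Fc receptor and tyrosine-motif signalling genes, 16 of 18 were tested, and 11 were higher, none lower and 5 not called in hIAPP against WT, with a median log2 fold change of 0.56. The adaptor Tyrobp, which signals for TREM2 and related receptors, averaged 9.84 ± 3.42 CPM in hIAPP, 2.10 ± 0.369 CPM in rIAPP and 2.41 ± 0.237 CPM in WT islets. The cytosolic adaptor Lcp2 averaged 1.43 ± 0.587 CPM in hIAPP, 0.541 ± 0.100 CPM in rIAPP and 0.570 ± 0.0653 CPM in WT islets. The exchange factor Vav1 averaged 4.23 ± 1.25 CPM in hIAPP, 1.75 ± 0.315 CPM in rIAPP and 1.87 ± 0.288 CPM in WT islets. All 3 were called higher in hIAPP than in WT. In hIAPP against rIAPP, 13 of these 16 were higher, 1 was lower and 2 were not called.

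Other surface receptors ran between Cd14, which was not called, and Cd84, which was 6.56-fold higher in hIAPP than in WT islets. Cd84, a receptor of the SLAM family through which leukocytes bind each other, had 5.24, 7.5 and 13.2 CPM in hIAPP, 0.781, 0.890 and 1.09 CPM in rIAPP and 0.987, 1.24 and 1.76 CPM in WT islets, and its log2 fold change was 2.71 ± 0.20 against WT and 3.18 ± 0.20 against rIAPP. Gpr34, a receptor for lysophosphatidylserine, had 3.32, 4.02 and 5.47 CPM in hIAPP, 0.654, 0.909 and 1.10 CPM in rIAPP and 0.922, 1.01 and 1.19 CPM in WT islets. Both receptors were clear of the other genotypes in every hIAPP library. Itgb2, the beta chain of the leukocyte integrins, had 4.98, 7.09 and 13.3 CPM in hIAPP against 2.21, 2.61 and 2.84 CPM in WT islets, a log2 fold change of 1.65 ± 0.19. Its partner Itgam, the alpha chain of complement receptor Mac-1, had 3.37, 4.97 and 7.95 CPM in hIAPP, 1.74, 2.52 and 3.54 CPM in rIAPP and 1.92, 2.43 and 2.89 CPM in WT islets. The log2 fold change of Itgam was 1.11 ± 0.20 against WT and 1.01 ± 0.20 against rIAPP, where the libraries overlapped. In GENCODE M21 a gene model on the same strand, Gm49368, shares 66.3% of the 50-base words of Itgam, and it had 0.0459 CPM in hIAPP, 0.0021 CPM in rIAPP and 0.00727 CPM in WT islets. The tetraspanin Cd53 averaged 4.33 ± 1.43 CPM in hIAPP, 1.43 ± 0.140 CPM in rIAPP and 1.42 ± 0.144 CPM in WT islets. Ptprc, the phosphatase CD45 that marks all leukocytes, averaged 14.4 ± 4.42 CPM in hIAPP, 6.56 ± 0.966 CPM in rIAPP and 6.93 ± 0.994 CPM in WT islets, a log2 fold change of 1.05 ± 0.16 against WT. For Cd53 and Ptprc alike, every hIAPP library was above every library of the other genotypes.

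Cd14, a co-receptor for bacterial endotoxin, was the exception. It had 1.68, 2.37 and 4.19 CPM in hIAPP, 1.74, 2.36 and 3.09 CPM in rIAPP and 1.76, 2.02 and 2.24 CPM in WT islets, and the libraries of all 3 genotypes overlapped. The log2 fold change was 0.31 ± 0.19 against WT, with a 95% interval of -0.08 to 0.70, and 0.02 ± 0.19 against rIAPP. The highest value came from hIAPP 4, while hIAPP 5 and hIAPP 6, the highest libraries for most of the other genes, were the lowest for Cd14. Of 9 other genes of the endotoxin receptor and its signal path, 2 were higher, none lower and 7 not called in hIAPP against WT, with a median log2 fold change of 0.19. The receptor Tlr4 averaged 4.78 ± 1.21 CPM in hIAPP, 4.36 ± 0.395 CPM in rIAPP and 3.29 ± 0.358 CPM in WT islets. The kinase Irak4 averaged 5.25 ± 0.556 CPM in hIAPP, 5.88 ± 0.358 CPM in rIAPP and 4.43 ± 0.277 CPM in WT islets. Of 10 further leukocyte integrin genes, 5 were higher, 1 was lower and 4 were not called. Among them Itgax, the alpha chain CD11c, averaged 9.73 ± 4.5 CPM in hIAPP, 2.18 ± 0.339 CPM in rIAPP and 2.48 ± 0.365 CPM in WT islets, and Fermt3, which activates integrins in blood cells, 5.14 ± 1.63 CPM in hIAPP, 2.10 ± 0.222 CPM in rIAPP and 2.40 ± 0.346 CPM in WT islets.

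All 5 NADPH oxidase genes were called higher in hIAPP than in WT islets (8.31% of all genes were), within a narrow band of log2 fold changes between 0.80 and 1.36. Cybb, the catalytic subunit gp91phox, had 10.6, 14.9 and 20.9 CPM in hIAPP, 5.63, 5.74 and 8.77 CPM in rIAPP and 7.43, 9.11 and 10.3 CPM in WT islets, and its log2 fold change was 0.80 ± 0.16 against WT and 1.28 ± 0.16 against rIAPP. Its membrane partner Cyba had 5.62, 7.13 and 13.9 CPM in hIAPP, 3.03, 4.39 and 4.97 CPM in rIAPP and 3.60, 3.90 and 4.77 CPM in WT islets. Every hIAPP library was above both other genotypes for each membrane subunit. Ncf1, the cytosolic organiser p47phox, averaged 6.31 ± 2.33 CPM in hIAPP, 1.95 ± 0.224 CPM in rIAPP and 2.47 ± 0.132 CPM in WT islets. The gene Gtf2ird2, on the other strand, covers 11.1% of the exon bases of Ncf1. It averaged 11.4 CPM in hIAPP, 10.7 CPM in rIAPP and 12.5 CPM in WT islets, and its part in the level of Ncf1 was not tested. Ncf4, the cytosolic p40phox, averaged 1.61 ± 0.464 CPM in hIAPP, 0.627 ± 0.0978 CPM in rIAPP and 0.642 ± 0.0906 CPM in WT islets. Rac2, the small GTPase of the complex in blood cells, averaged 1.46 ± 0.593 CPM in hIAPP, 0.608 ± 0.0935 CPM in rIAPP and 0.666 ± 0.0764 CPM in WT islets, and its lowest hIAPP library, 0.771 CPM, lay under its highest WT library, 0.791 CPM. Of 11 other oxidase genes 6 were tested, and 4 were higher, none lower and 2 not called in hIAPP against WT. The proton channel Hvcn1, which balances the charge that the oxidase moves, averaged 2.66 ± 0.808 CPM in hIAPP, 0.619 ± 0.165 CPM in rIAPP and 0.771 ± 0.111 CPM in WT islets. Nox4, an oxidase of other cells that needs none of the cytosolic subunits, averaged 3.92 ± 1.71 CPM in hIAPP, 1.68 ± 0.293 CPM in rIAPP and 1.34 ± 0.283 CPM in WT islets. Both were called higher in hIAPP than in WT.

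The 5 Ms4a genes, which lie together on chromosome 19 and encode membrane proteins of leukocytes, were all called higher in hIAPP than in WT islets (8.31% of all genes were). For each of the 5, every hIAPP library was above every WT library (3.74% of all genes) and every rIAPP library (6.52%). Ms4a4a had 1.13, 1.5 and 1.76 CPM in hIAPP, 0.195, 0.286 and 0.350 CPM in rIAPP and 0.0461, 0.144 and 0.170 CPM in WT islets. Its log2 fold change was 3.54 ± 0.27 against WT and 2.39 ± 0.25 against rIAPP, and its WT libraries held 7 to 26 counts. Ms4a7, known from macrophages and microglia, had 7.79, 12.7 and 17.9 CPM in hIAPP, 1.68, 1.94 and 2.95 CPM in rIAPP and 2.10, 2.64 and 3.11 CPM in WT islets. The near relatives Ms4a6b, Ms4a6c and Ms4a6d share some sequence, and their sum was 17.8 ± 6.64 CPM in hIAPP, 4.76 ± 0.602 CPM in rIAPP and 4.61 ± 0.743 CPM in WT islets. Taken one by one their log2 fold changes against WT were 1.70 ± 0.21 for Ms4a6b, 1.88 ± 0.20 for Ms4a6c and 2.39 ± 0.23 for Ms4a6d. The transcript BE692007, on the other strand, covers 53.1% of the exon bases of Ms4a6c and had 0.106 CPM in hIAPP, 0.0406 CPM in rIAPP and 0.0593 CPM in WT islets. Of 16 other genes of the family, 15 were in the table and 4 were tested. Tmem176a and Tmem176b, more distant relatives, averaged 53.4 ± 4.91 and 66.6 ± 3.36 CPM in hIAPP, 53.8 ± 4.64 and 65.1 ± 4.94 CPM in rIAPP, and 44.1 ± 1.76 and 58.6 ± 3.39 CPM in WT islets, and were called higher in hIAPP than in WT. Ms4a4d averaged 1.33 ± 0.331 CPM in hIAPP, 3.24 ± 0.383 CPM in rIAPP and 1.22 ± 0.261 CPM in WT islets, and was highest in rIAPP. Ms4a1, the B cell protein CD20, had at most 8 counts in a hIAPP, 7 in a rIAPP and 11 in a WT library.

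The 3 secreted proteins were among the larger differences. Wfdc17, a small protease inhibitor-like protein of activated mouse macrophages, had 0.797, 1.30 and 2.45 CPM in hIAPP, 0.0513, 0.130 and 0.228 CPM in rIAPP and 0.0503, 0.0894 and 0.137 CPM in WT islets. The groups were far apart, but its WT libraries held 7 to 22 counts, and its log2 fold change of 3.94 ± 0.38 had the widest error of the 38 genes. Pla2g7, the phospholipase that inactivates platelet-activating factor, had 15.6, 21.4 and 31.1 CPM in hIAPP, 4.04, 4.96 and 6.03 CPM in rIAPP and 3.62, 4.31 and 5.36 CPM in WT islets. Trf, the iron carrier transferrin, had 23.2, 27.7 and 30.4 CPM in hIAPP, 5.70, 9.46 and 10.7 CPM in rIAPP and 6.65, 7.81 and 8.81 CPM in WT islets. Its hIAPP libraries were the most alike of the 38 genes, and its log2 fold change was 1.81 ± 0.12 against WT and 1.58 ± 0.12 against rIAPP. Transferrin is known mainly as a product of the liver and of myelinating cells. Of 8 markers of Schwann cells, which include myelinating cells, 5 were higher, none lower and 3 not called in hIAPP against WT. All genes had 8.31% higher and 7.53% lower there. In hIAPP against rIAPP 1 of the 8 was higher and 7 were not called. Their part in the level of Trf was not tested. In GENCODE M21 another model on the same strand, Gm20425, shares 58.5% of the 50-base words of Trf, and no level was available for it. Of 11 other genes of iron handling, 4 were higher, 1 was lower and 6 were not called in hIAPP against WT. The phagosomal metal transporter Slc11a1 averaged 7.26 ± 1.68 CPM in hIAPP, 2.59 ± 0.395 CPM in rIAPP and 2.80 ± 0.199 CPM in WT islets. Hmox1, which breaks down heme, averaged 7.75 ± 2.5 CPM in hIAPP, 3.93 ± 0.278 CPM in rIAPP and 3.06 ± 0.326 CPM in WT islets.

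The kinases had a median log2 fold change of 1.29 in hIAPP against WT, the transcription factors 1.14 and the cytoskeletal genes 0.76. Syk, the kinase that binds phosphorylated tyrosine motifs, had 3.94, 7.11 and 10.7 CPM in hIAPP, 2.85, 3.15 and 3.56 CPM in rIAPP and 2.33, 3.02 and 4.01 CPM in WT islets, and its lowest hIAPP library lay just under its highest WT library. Btk, a kinase of B cells and myeloid cells, had 0.418, 0.759 and 1.32 CPM in hIAPP, 0.320, 0.342 and 0.404 CPM in rIAPP and 0.214, 0.346 and 0.424 CPM in WT islets, with a similar overlap. Lyn, a Src-family kinase that phosphorylates the motifs, had 11.3, 12.5 and 17.1 CPM in hIAPP, 11, 11.7 and 13.4 CPM in rIAPP and 8.56, 9.44 and 9.90 CPM in WT islets. For Lyn both transgenic genotypes were clear of WT and overlapped with each other, and the log2 fold change was 0.51 ± 0.09 against WT and 0.16 ± 0.09 against rIAPP. Spi1 had 1.77, 2.28 and 4.0 CPM in hIAPP, 0.938, 1.15 and 1.55 CPM in rIAPP and 0.934, 1.17 and 1.23 CPM in WT islets, a log2 fold change of 1.21 ± 0.19 against WT. Irf8 had 3.77, 5.42 and 8.49 CPM in hIAPP, 3.15, 3.42 and 3.78 CPM in rIAPP and 2.51, 2.85 and 3.21 CPM in WT islets, a log2 fold change of 1.06 ± 0.15 against WT and 0.80 ± 0.15 against rIAPP. Both factors were above WT in every hIAPP library. Of 12 other transcription factors of myeloid cells 11 were tested, and 6 were higher, none lower and 5 not called. Of these Runx1 averaged 1.63 ± 0.600 CPM in hIAPP, 0.715 ± 0.0950 CPM in rIAPP and 0.723 ± 0.117 CPM in WT islets, and Cebpa, which directs myeloid commitment, 5.16 ± 0.913 CPM in hIAPP, 2.77 ± 0.411 CPM in rIAPP and 2.81 ± 0.171 CPM in WT islets.

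Aif1, the actin-bundling protein Iba1 used as a macrophage and microglia marker, had 1.88, 3.10 and 4.55 CPM in hIAPP, 0.726, 0.956 and 1.02 CPM in rIAPP and 0.810, 1.29 and 1.40 CPM in WT islets. The log2 fold change of Aif1 was 1.37 ± 0.20 against WT and 1.74 ± 0.20 against rIAPP. Coro1a, an actin-binding protein of leukocytes, had 3.40, 4.28 and 5.54 CPM in hIAPP, 1.73, 2.84 and 3.36 CPM in rIAPP and 2.22, 2.59 and 3.13 CPM in WT islets. Plek, a substrate of protein kinase C in platelets and leukocytes, had 6.16, 8.83 and 12.4 CPM in hIAPP, 4.10, 4.41 and 4.94 CPM in rIAPP and 4.52, 5.19 and 5.72 CPM in WT islets. All 3 were above both other genotypes in every hIAPP library, and Coro1a and Plek, at 0.74 ± 0.16 and 0.76 ± 0.13 on the log2 scale against WT, were with Cd14, Lyn, Cybb and Fcer1g the genes that differed less than 2-fold.

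Against rIAPP islets, 36 of the 38 genes were called higher in hIAPP islets and none lower, where 13.5% of all genes were called higher and 14.1% lower. The log2 fold changes ran between 0.02 and 4.10 with a median of 1.74, where all genes had a median of 0.00. The exceptions were Cd14 and Lyn. For 34 genes every hIAPP library was above every rIAPP library (6.52% of all genes), the others being Cd14, Lyn, Itgam and Irf8. The difference was at least 2-fold for 32 genes (3.04%) and at least 4-fold for 12 (0.657%). The comparison shares its hIAPP libraries with that against WT. Its log2 fold change was 2.49 for Fcrls, beside 3.90 against WT, and 2.39 for Ms4a4a, beside 3.54 against WT. It was 1.96 for Fcer1g, beside 0.97 against WT, 1.80 for Fcgr1, beside 1.11, and 1.28 for Cybb, beside 0.80.

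**Figure D3:**
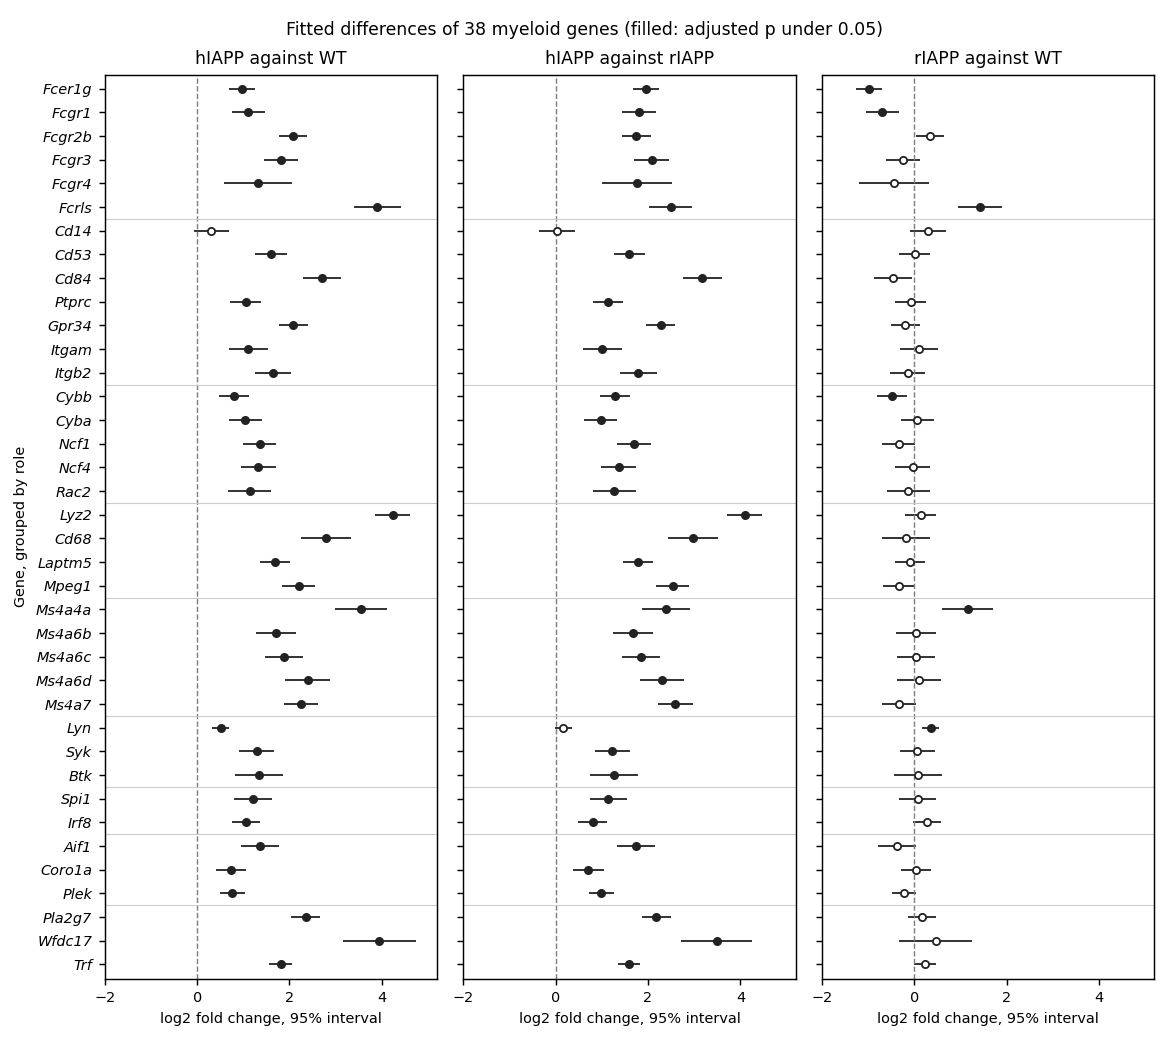
Fitted log2 fold changes of the 38 genes (rows, grouped by role) for hIAPP against WT, hIAPP against rIAPP and rIAPP against WT, with 95% intervals from the edgeR fit and filled points where the adjusted p was under 0.05. Nearly all points lie right of 0 in the hIAPP panels, between 0.31 and 4.24 and between 0.02 and 4.10, and scatter around 0 in the rIAPP against WT panel, where 6 are filled.

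The list was drawn up with the response to human IAPP known, and hIAPP against rIAPP uses the same rIAPP libraries. Nothing is therefore read from the number of the 38 genes called in rIAPP against WT. In rIAPP against WT islets 3 of the 38 genes were called higher (14.1% of all genes were) and 3 lower (12.6% of all genes), 32 did not pass, and the median log2 fold change was 0.02 where all genes had -0.01. The split was 5 higher and 2 lower with library totals in place of scaling factors, 1 higher and 7 lower with the acinar level as a covariate (median -0.46), 3 higher and 6 lower with mouse number as a covariate, 4 higher and 6 lower when only rIAPP and WT libraries were fitted, and 5 higher and 6 lower without hIAPP 5 and hIAPP 6. Over all 20244 genes the main fit called 2860 higher and 2557 lower. In the order given, the other fits called 4554 and 1404, 1167 and 890, 2637 and 2378, 3009 and 2447, and 3129 and 2619. The genes higher in rIAPP were Fcrls, by 1.42 ± 0.23 (edgeR adjusted p = 8.4e-05, within 9.4e-09 to 0.0368 over all alternatives), Ms4a4a, by 1.15 ± 0.26 (edgeR adjusted p = 0.00224), and Lyn, by 0.35 ± 0.09 (edgeR adjusted p = 0.00482). In each of them every rIAPP library was above every WT library, as it was for 8.13% of all genes. The genes lower in rIAPP were Fcer1g, at -0.99 ± 0.13 (edgeR adjusted p = 1.0e-05), Fcgr1, at -0.69 ± 0.17 (edgeR adjusted p = 0.00484), and Cybb, at -0.48 ± 0.16 (edgeR adjusted p = 0.0268). All rIAPP libraries were below all WT libraries for Fcer1g, Fcgr1 and Ncf1 (6.75% of all genes), of which Ncf1, at -0.34 ± 0.17, did not pass (edgeR adjusted p = 0.166). For Cybb the library rIAPP 6, at 8.77 CPM, reached into the WT range, and the call was lost without rIAPP 1, 3, 4 or 5 or without WT 2, 5 or 6, with log2 fold changes of -0.43 to -0.45 in those runs and an edgeR adjusted p of 0.0503 to 0.0662, within 0.00145 to 0.136 over all alternatives. It was also lost with library totals alone (-0.36). With the acinar level as a covariate Ms4a4a, at 0.99 (edgeR adjusted p = 0.146, within 9.0e-05 to 0.146), and Lyn, at 0.19 (edgeR adjusted p = 0.456, within 9.4e-05 to 0.456), were no longer called. Lyz2 differed by 0.14 ± 0.16 between rIAPP and WT (edgeR adjusted p = 0.597) and Cd68 by -0.18 ± 0.25 (edgeR adjusted p = 0.662), and Trf was at 0.23 ± 0.11 (edgeR adjusted p = 0.163), a call that was gained without rIAPP 6 (log2 fold change 0.33, edgeR adjusted p = 0.0038, within 0.0038 to 0.969 over all alternatives). The call for Trf was also gained with library totals alone (edgeR adjusted p = 0.0474). Cd84, at -0.46 ± 0.19, gained a call without hIAPP 5 (edgeR adjusted p = 0.0462, within 0.0218 to 0.339). It was also called when only rIAPP and WT libraries were fitted and without hIAPP 5 and hIAPP 6 together. Fcgr2b, at 0.33 ± 0.15, gained a call without WT 6 (edgeR adjusted p = 0.0471, within 0.043 to 0.9996). It was also called with library totals alone and without hIAPP 5 and hIAPP 6 together. Mpeg1, at -0.33 ± 0.16 (edgeR adjusted p = 0.148), and Ncf1 were called lower when only the rIAPP and WT libraries were fitted, without hIAPP 5 and hIAPP 6 together, and with the acinar level or the mouse number as a covariate. Aif1 was called lower with the acinar level (-1.01) and with mouse number (-0.54), Ms4a7 lower with the acinar level (-0.86), and Irf8 higher when only rIAPP and WT libraries were fitted and without hIAPP 5 and hIAPP 6 (0.28 in both).

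The other lists are read against the same 14.1% higher and 12.6% lower of all genes. Of the other Fc receptor and tyrosine-motif genes 1 of 16 was higher in rIAPP than in WT and none lower, and of the oxidase genes 1 of 6 was lower. Of the endotoxin receptor genes 4 of 9 were higher and 1 was lower, with Tlr4 at 0.41 ± 0.13 (edgeR adjusted p = 0.0269) and Irak4 at 0.41 ± 0.08 (edgeR adjusted p = 0.00041). The integrin list had 2 of 10 higher and none lower, the transcription factors 2 higher and 1 lower of 11, and iron handling 1 higher and 4 lower of 11. Ms4a4d was higher by 1.41 ± 0.17 (edgeR adjusted p = 2.8e-06). Of 13 macrophage markers, 2 were higher and 7 lower, and Trem2 was at -0.81 ± 0.19 (edgeR adjusted p = 0.0032).

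The label of the 38 genes as general to myeloid cells was set against markers of single cell types. Of 13 macrophage markers, 10 were called higher, none lower and 3 not called in hIAPP against WT, and their summed level ranged between 203 and 391 CPM in hIAPP, between 85.0 and 99.3 CPM in rIAPP and between 126 and 145 CPM in WT islets. In hIAPP against rIAPP, 11 of the 13 were higher (13.5% of all genes were) and 2 lower (14.1%). Their log2 fold changes there ran between -2.96 and 4.39. The markers named next had the largest differences between hIAPP and WT among those of at least 1 CPM. Gpnmb averaged 28.4 ± 23.5 CPM in hIAPP, 1.36 ± 0.503 CPM in rIAPP and 1.04 ± 0.362 CPM in WT islets, Trem2 8.34 ± 2.6 CPM in hIAPP, 0.735 ± 0.192 CPM in rIAPP and 1.29 ± 0.149 CPM in WT, and Lgals3 10.2 ± 7.68 CPM in hIAPP, 2.16 ± 0.554 CPM in rIAPP and 2.01 ± 0.322 CPM in WT. Defining neutrophil markers were at or near 0. Ly6g had no count in any hIAPP or rIAPP library and at most 1 in a WT library, and S100a8 had at most 17 counts in a hIAPP, 31 in a rIAPP and 18 in a WT library. Of the 12 neutrophil markers 2 passed the filter on low counts, and Csf3r, a receptor also used by monocytes, averaged 2.13 ± 0.575 CPM in hIAPP, 0.391 ± 0.0687 CPM in rIAPP and 0.464 ± 0.156 CPM in WT islets. The summed neutrophil list ranged between 1.60 and 3.60 CPM in hIAPP, between 0.596 and 1.56 CPM in rIAPP and between 0.549 and 1.28 CPM in WT islets.

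No monocyte marker was called higher in hIAPP than in WT islets by edgeR or by DESeq2 (1 at an unadjusted edgeR p under 0.05), 2 of 8 tested were lower, and the summed list ranged between 73.5 and 103 CPM in hIAPP, between 88.4 and 102 CPM in rIAPP and between 72.9 and 94.9 CPM in WT islets. Ccr2, the receptor by which monocytes leave the blood, averaged 1.65 ± 0.758 CPM in hIAPP, 3.57 ± 0.881 CPM in rIAPP and 2.90 ± 0.620 CPM in WT islets, a log2 fold change of hIAPP against WT of -0.82 ± 0.23. Of 8 dendritic cell markers tested, edgeR called none in either direction (1 was lower at an unadjusted p under 0.05), and DESeq2 called 1 lower. Among lymphocyte markers Cd3e had at most 15 counts in a hIAPP, 8 in a rIAPP and 9 in a WT library. Of 7 T cell markers tested 1 was higher and none lower, which was Cd4, at 2.19 ± 1.26 CPM in hIAPP, 0.276 ± 0.111 CPM in rIAPP and 0.197 ± 0.0639 CPM in WT islets. The summed T cell list ranged between 3.04 and 6.39 CPM in hIAPP, between 1.60 and 2.63 CPM in rIAPP and between 1.58 and 1.90 CPM in WT islets. Of 5 B cell markers tested edgeR called 1 higher and none lower (1 was lower at an unadjusted p under 0.05), and DESeq2 called 1 higher and 1 lower. The higher one by edgeR was Cd22, at 1.87 ± 0.546 CPM in hIAPP, 0.273 ± 0.0523 CPM in rIAPP and 0.673 ± 0.122 CPM in WT islets. The mast cell protease Cpa3 had at most 4 counts in a hIAPP, 19 in a rIAPP and 4 in a WT library.

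**Figure D4:**
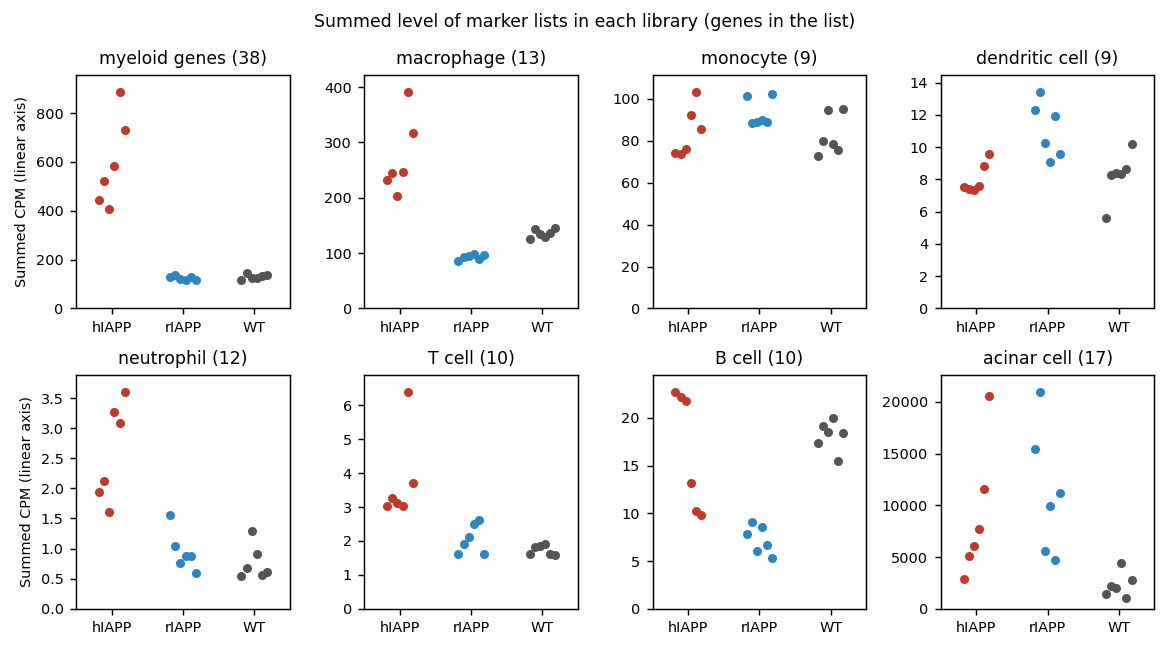
Summed CPM of the 38 myeloid genes and of marker lists of 7 cell types in each library (points, linear axes from 0), for hIAPP, rIAPP and WT islets, with the number of genes in brackets. The myeloid genes, the macrophage markers and, at much lower levels, the neutrophil and T cell markers set hIAPP above both others. The monocyte and dendritic cell sums overlap between genotypes, the B cell sum overlaps between hIAPP and WT, and the acinar sum is high in hIAPP and rIAPP.

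Acinar markers moved with the hIAPP genotype too, 15 of 17 being higher and none lower against WT, with a median log2 fold change of 1.88. In rIAPP against WT islets 17 of 17 were higher, with a median of 2.31. Their summed level ranged between 2878 and 20606 CPM in hIAPP, between 4732 and 20929 CPM in rIAPP and between 1040 and 4424 CPM in WT islets. The 38 myeloid genes together were at 125 CPM in rIAPP islets and 131 CPM in WT islets. Stellate cell and fibroblast markers also rose, 7 of 10 in hIAPP and 7 of 10 in rIAPP against WT. Of 10 endothelial markers 10 were higher in rIAPP than in WT, 3 lower and none higher in hIAPP than in WT (edgeR and DESeq2, with none higher at an unadjusted edgeR p under 0.05), and 10 lower in hIAPP than in rIAPP. Their summed level ranged between 612 and 709 CPM in hIAPP, between 860 and 969 CPM in rIAPP and between 686 and 778 CPM in WT islets, and its part in the myeloid differences was not tested. With the acinar level as a covariate, 24 of the 38 genes were called higher in hIAPP against WT. Over all 20244 genes, 478 were called higher with it and 1683 without it. The median log2 fold change of the 38 genes was 1.16. The 13 lost were Fcgr1, Fcgr4, Ptprc, Itgam, Cybb, Cyba, Rac2, Lyn, Btk, Spi1, Aif1, Coro1a and Plek, among them 3 of the 5 oxidase genes. In hIAPP against rIAPP, 36 of the 38 genes were called with the covariate as without it. Over all genes, 2616 were called higher there with it and 2730 without it.

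Most of the genes were high or low in the same hIAPP libraries. Relative to each gene's hIAPP mean on the log2 scale, the median of the 38 genes was -0.34 in hIAPP 1, -0.12 in hIAPP 2, -0.47 in hIAPP 3, -0.04 in hIAPP 4, 0.55 in hIAPP 5 and 0.39 in hIAPP 6. The library hIAPP 5 was the highest for 26 genes and hIAPP 6 for 10, and in each of these libraries 37 of 38 genes were above the mean, with Cd14 as the exception. The library hIAPP 3 was the lowest for 29 genes and hIAPP 1 for 8. Acinar markers made up 0.274% of counts in hIAPP 1, 0.488% in hIAPP 2, 0.605% in hIAPP 3, 0.836% in hIAPP 4, 1.30% in hIAPP 5 and 2.14% in hIAPP 6. The libraries highest in myeloid genes were also highest in acinar markers, and at 110 and 117 M counts they were the smallest. Their part in the order of the libraries was not tested. Without both libraries 36 of the 38 genes were called higher against WT, with a median log2 fold change of 1.18, and Fcgr4, at 0.65, was the further gene lost. Over all 20244 genes, 1052 were called higher without these libraries and 1683 with them. Among rIAPP libraries the median of the 38 genes ran between -0.08 and 0.12, and among WT libraries between -0.10 and 0.13.

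**Figure D5:**
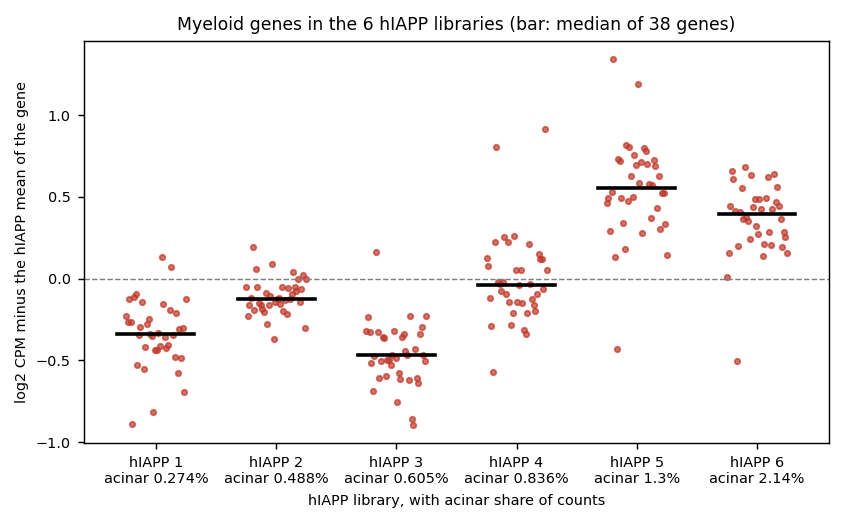
Each point is 1 of the 38 genes in 1 hIAPP library, as log2 CPM minus the mean of that gene over the 6 hIAPP libraries, bars are medians, and the share of counts from acinar markers stands beneath each library name. The medians are highest in hIAPP 5 (0.55) and hIAPP 6 (0.39) and lowest in hIAPP 3 (-0.47).

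The range over hIAPP libraries differed by gene. Trf varied least around its mean, with deviations between -0.23 and 0.16 on the log2 scale, while Cd68 lay between -0.75 and 1.19. Lyz2 took an even 35.2% to 38.7% of the counts of the 38 genes in the 6 hIAPP libraries.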

How the data were processed

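RNA was sequenced from islets of 18 mice, 6 of each genotype. Libraries were made with TruSeq after Ribo-Zero depletion of ribosomal RNA, per the labels' protocols. The deposited table holds estimated counts per gene symbol, not normalised. STAR, HTSeq, GRCm38 and mm10 are named in the submitters' processing notes, without versions. Not given in the sources used here are the annotation, the strand setting and the step behind fractional counts, so overlapping, antisense and near-identical genes may share reads. Of the values above 0, 39.2% were not whole, and all were rounded before testing.

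Counts were fitted with edgeR 4.0.16 in R 4.3.3 (TMM factors, filterByExpr by genotype with a minimum count of 10, quasi-likelihood test, 1 mean per genotype over all 18 libraries). Tests were two-sided, with Benjamini-Hochberg adjustment over the 20244 genes kept, and standard errors were taken from the fold change and the F statistic. CPM were computed from the deposited counts, the library total and the TMM factor, and log2 CPM with a prior count of 2. Levels per kilobase used exon lengths of GENCODE M21, which with RefSeq gave positions on GRCm38. Single values of libraries were compared by exact two-sided permutation tests, adjusted over 15. The 95% intervals and p values come from the fit and cover the spread between these mice.

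The 38 genes, the other gene lists and the alternatives were chosen with earlier results of these data known. All 38 are named. From each other list at most 3 genes are named, those kept with the largest absolute log2 fold change in hIAPP against WT and at least 1 CPM in a genotype, together with defining markers at or near 0. Further names are genes that overlap or resemble 1 of the 38. Alternatives were DESeq2 1.42.0, limma-voom (limma 3.58.1), other scaling factors, other filters, fits of 2 genotypes, removal of the 10 most abundant genes, the acinar score or mouse number as a covariate, and leaving out libraries. The procedure was tested on simulated data, where genes with few counts were recovered less often than abundant ones. Python 3.11.15 and matplotlib 3.10.9 drew the figures. Library numbers within a genotype follow accession order and pair no mice.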

Additional observations from a re-analysis of the deposited data

Results flagged for a closer look

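Of 114 sets of 6 libraries (38 genes in 3 genotypes), 6 held a library that stood apart from the other 5 by more than Dixon's 95% limit, and chance alone flags about 1 set in 20. Cd68 was at 28.2 CPM in hIAPP 5, where the other hIAPP libraries lay between 7.33 and 14.9 CPM. The remaining 5 were in rIAPP libraries. Cybb was at 8.77 CPM in rIAPP 6, with the others between 5.63 and 6.65 CPM, and Trf was at 5.70 CPM in the same library, with the others between 9.06 and 10.7 CPM. Ms4a6c was at 1.87 CPM in rIAPP 4, with the others between 2.78 and 3.12 CPM. Ms4a7 was at 2.95 CPM in rIAPP 2, with the others between 1.68 and 2.01 CPM. Aif1 was at 0.726 CPM in rIAPP 5, with the others between 0.921 and 1.02 CPM.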

How the results depend on the processing

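No paired analysis was possible because the labels give mice of different genotypes no shared replicate numbers. In hIAPP against WT, 37 of the 38 genes were called in all runs except with the acinar score as covariate (24), without hIAPP 5 and hIAPP 6 (36), in runs without 1 library (36 to 37) and with at least 1 CPM in 6 libraries (33 of 34 tested), and no gene changed sign. The number of genes called over the whole table was 3208, against 755 with the acinar score and 1709 without hIAPP 5 and hIAPP 6. In hIAPP against rIAPP, 36 were called in most runs, with 37 under mouse number and 32 of 34 under the stricter filter. In rIAPP against WT, where 6 were called, library totals called 7, the acinar score 8, mouse number 9, the fit of only the 2 genotypes 10 and the fit without hIAPP 5 and hIAPP 6 11. Runs without 1 library called 5 to 7. Of all genes, 5417 were called, and 2057 with the acinar score. Library totals alone shifted the median of all genes by 0.12 in hIAPP against WT, with 3139 called higher and 480 lower beside 1683 and 1525, and by 0.12 in rIAPP against WT, with 4554 and 1404 beside 2860 and 2557. The cause of the other differences was not tested. Counts were few for Fcgr4, Wfdc17, Ms4a4a and Btk, and for Fcrls in WT libraries, which limits their precision.

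Signs turned in no member of hIAPP against WT, and otherwise in members that were not called. In hIAPP against rIAPP, Cd14 was at -0.049 with the acinar score, -0.033 with mouse number, and -0.19 to 0.12 over the runs without 1 library, and Lyn was at -0.0023 without hIAPP 5 and hIAPP 6. In rIAPP against WT, library totals alone gave 0.043 for Ptprc, 0.082 for Ncf4 and 0.023 for Laptm5, and limma-voom -0.0021 for Coro1a. The acinar score gave -0.29 for Coro1a, -0.00037 for Fcgr2b, -0.38 for Cd53, -0.39 for Itgam, -0.25 for Cyba, -0.44 for Lyz2, -0.27 for Ms4a6b, -0.52 for Ms4a6c, -0.41 for Ms4a6d, -0.18 for Syk, -0.47 for Btk, -0.44 for Spi1, -0.090 for Irf8, -0.30 for Pla2g7 and -0.54 for Wfdc17. Mouse number gave -0.042 for Coro1a, -0.13 for Cd53, -0.028 for Itgam, -0.044 for Cyba, -0.10 for Ms4a6b, -0.15 for Ms4a6c, -0.085 for Ms4a6d, -0.016 for Syk, -0.099 for Btk and -0.041 for Spi1. Runs without 1 library turned, with their whole range over the 18 runs, Ncf4 (-0.10 to 0.033), Coro1a (-0.042 to 0.13), Cd53 (-0.031 to 0.040), Ms4a6b (-0.085 to 0.11), Ms4a6c (-0.021 to 0.13), Itgam (-0.0031 to 0.19), Syk (-0.00075 to 0.16), Btk (-0.027 to 0.15) and Spi1 (-0.016 to 0.13).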
